A study of Mus musculus with 6 samples.

Results

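The tripartite motif (TRIM) family of ubiquitin ligases was compared between control cells of a mouse melanoma line and cells of that line with Nfkbiz disrupted. The members were all genes in the count tables named Trim with a number and, at most, 1 letter from a to d, which gave 68 of 43043 genes. Of these, 48 had at least 10 reads in 3 or more samples and were tested together with all other genes above that minimum, 14533 in total. The cells were D4M-3A, an established mouse melanoma line. Ctrl cells had been transduced with lentivirus carrying an empty control construct, Nfkbiz KO cells with a CRISPR-Cas9 construct directed against Nfkbiz, and both had been selected with puromycin. RNA was sequenced from 3 Ctrl and 3 Nfkbiz KO samples. Whether the knockout cells were 1 clone or a pool was not given in the sources used here, so that the gene disruption and the choice of cells cannot be told apart, and p-values measure the spread between these samples only.

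TRIM proteins share an N-terminal block made of a RING finger, which recruits the ubiquitin-conjugating (E2) enzyme, 1 or more B-box zinc fingers and a coiled coil through which the proteins pair. The C-terminal domain selects the substrate and divides the family into classes, the most populous of which carries a SPRY domain. Many SPRY-class members act in innate immunity: they recognise viral capsids, or attach ubiquitin to sensors of foreign RNA and DNA and to their adaptors, and their own genes are induced by type I interferon. Other members work in the nucleus as transcriptional co-repressors, on the cytoskeleton or on RNA. Nfkbiz encodes IκBζ, an atypical nuclear member of the IκB family that modulates NF-κB and STAT target genes.

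The samples held between 32219900 and 44927203 gene reads, of which 96.5% to 96.9% mapped uniquely. Nfkbiz itself, given as TPM (reads scaled by transcript length and by library), stood at 69.1, 75.2 and 63.5 TPM in the Ctrl samples and at 34.8, 34.7 and 35.2 TPM in the Nfkbiz KO samples. The groups were apart, with a log2 fold change of -0.98 (SE 0.056, edgeR quasi-likelihood test, adjusted p = 5.65e-08), so that transcript remained in the cells labelled Nfkbiz KO. The study checked the knockout by immunoblot of IκBζ protein, which these RNA values do not address. Of 7 melanocyte lineage genes, Sox10 and Tyr had no read in any sample, and the summed level of the list was 1.11 to 1.74 TPM for Ctrl cells and 1.27 to 1.68 TPM for Nfkbiz KO cells. The labelled melanoma line therefore showed next to no pigment cell transcripts in either group. Of 9 markers of immune, endothelial and epithelial cells, Cd3e and Epcam had no read. The summed level of these markers was 0.561 to 0.851 TPM for Ctrl cells and 1.42 to 1.86 TPM for Nfkbiz KO cells, mainly through the endothelial cadherin gene Cdh5 at 0.397 to 0.671 TPM and 1.21 to 1.83 TPM. Pecam1, also an endothelial marker, did not rise with it (log2 -0.17, SE 0.66, adjusted p = 0.875) and had 0 reads in Nfkbiz KO replicate 1. The part of these genes in the results was not tested, and in such bulk RNA fewer cells of a kind and less RNA per cell cannot be told apart.

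TRIM transcripts covered a wide range of levels. Trim28, the co-repressor that KRAB zinc finger proteins bring to chromatin, had the highest level with 341 ± 19.1 TPM across the Ctrl samples and 337 ± 4.69 TPM across the Nfkbiz KO samples (mean ± SD, n = 3). It was followed by Trim30a, a SPRY-class gene known as a brake on Toll-like receptor signalling, with a mean over the 6 samples of 239 TPM, by Trim8, a regulator of cytokine signalling, with 157 TPM, and by Trim35 with 152 TPM. The next in order were Trim25 with 142 TPM, Trim47 with 114 TPM, Trim59 with 85.5 TPM, Trim12c with 76.4 TPM, Trim30d with 65.9 TPM and Trim44 with 58.2 TPM. The levels of Trim8 and Trim35 lay within each other's spread in both groups. At the other end, 7 genes had no read in any sample (Trim31, Trim40, Trim42, Trim54, Trim58, Trim61 and Trim63), which at 3 reads as the limit allows at most 0.0931 CPM (reads scaled by the library total alone) in the sample of lowest depth. A further 13 genes (Trim9, Trim10, Trim29, Trim38, Trim43b, Trim50, Trim52, Trim55, Trim60, Trim67, Trim72, Trim75 and Trim80) had no more than 8 reads in any sample. Trim54 and Trim63, both without reads, are known from striated muscle. At the edge of the minimum, Trim34b was included with 74 reads over all samples and Trim72 left out with 19, and no gene entered through 1 group only.

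**Figure D1:**
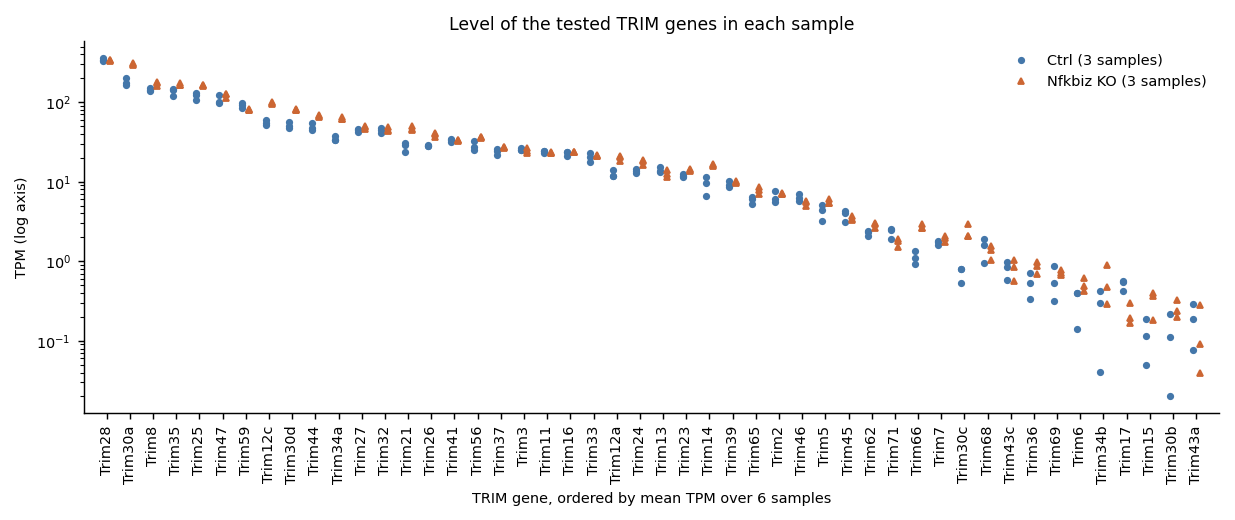
TPM of the 48 tested TRIM genes on a log axis, ordered by their mean over 6 samples, with Ctrl samples as circles and Nfkbiz KO samples as triangles. Trim28 leads in both groups at 325 to 362 TPM, while Trim30a, Trim12c, Trim30d and Trim34a show triangles well above the circles.

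The comparison of Nfkbiz KO with Ctrl cells asked which TRIM genes changed when Nfkbiz was disrupted. Among the 48 TRIM genes, 21 (43.8%) passed the test at an adjusted p of 0.05, against 36.3% of all genes tested, so that the share of called genes was near the background. The directions were uneven: 17 TRIM genes (35.4%) were higher in Nfkbiz KO cells, against 18% of all genes, and 4 (8.33%) were lower, against 18.2% of all genes. The median log2 fold change was 0.14 over the TRIM genes and -0.02 over all genes. Samples of the groups did not overlap, on the scale of log2 CPM, for 28 TRIM genes (58.3%) against 48.2% of all genes, and for 19 (39.6%) with the Nfkbiz KO samples higher against 23.8% of all genes. The changes were moderate in size. With the fold set to 1.5 or more and the adjusted p to 0.1 or less, 9 TRIM genes (18.8%) were called against 12.5% of all genes. With the threshold of the study, which asks for more than 2-fold, a difference over 4 (taken here as TPM) and an adjusted p up to 0.05, no TRIM gene was called, against 1.78% of all genes. By unadjusted p, 26 TRIM genes were under 0.05 with edgeR, 24 with DESeq2 and 25 with limma. With the fold change and the difference as well, 0 were left by unadjusted p with edgeR. For DESeq2 and limma this was counted by adjusted p only, and 0 were left too. With edgeR and the threshold of the study but no cut-off on the difference, Trim30c and Trim66 passed. All genes called had an exact permutation p of 0.1 on their own values, which is the smallest that 3 against 3 samples allow.

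**Figure D2:**
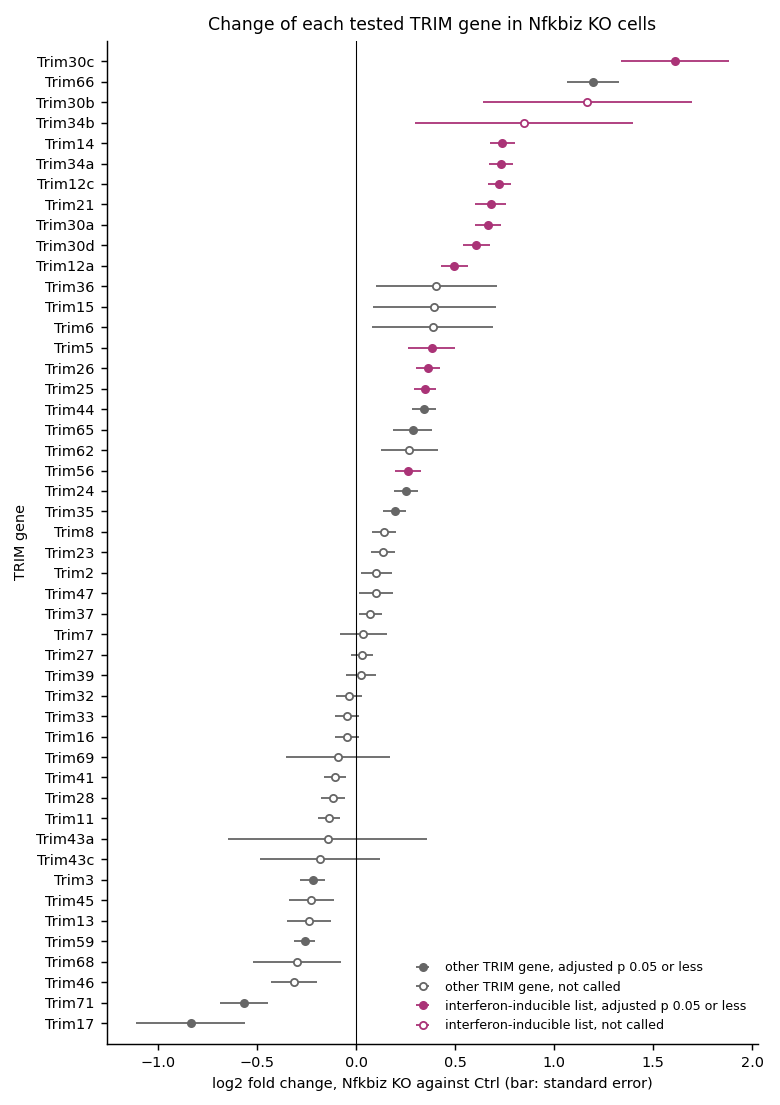
Log2 fold change of Nfkbiz KO against Ctrl for each of the 48 tested TRIM genes, with the standard error as bar, filled symbols for an adjusted p of 0.05 or less and purple for genes listed as interferon-inducible. The 14 purple symbols all lie to the right of 0, with filled symbols from 0.26 for Trim56 to 1.61 for Trim30c, and the lowest grey symbol is Trim17 at -0.83.

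TRIM genes listed as interferon-inducible made up most of those that were higher. The list was chosen with earlier results of these data known, so its counts describe these genes and are not an independent test. All 14 of that list were tested. A total of 12 rose (Trim5, Trim12a, Trim12c, Trim14, Trim21, Trim25, Trim26, Trim30a, Trim30c, Trim30d, Trim34a and Trim56) and none fell, while Trim30b and Trim34b did not pass the test. Of all genes tested, 18% rose and 18.2% fell. The median log2 fold change of the list was 0.67, against -0.02 over all genes, and all 14 values were positive under each alternative normalisation and test. Among the 34 tested TRIM genes outside the list, 5 rose, 4 fell and 25 were not called, beside the same 18% and 18.2% of all genes. Their median was -0.01. The summed level of the 14 genes was 547, 605 and 505 TPM in the Ctrl samples and 858, 861 and 891 TPM in the Nfkbiz KO samples. Every Nfkbiz KO sample was above every Ctrl sample, and the share of these genes in all TRIM transcripts went from 30.6%, 33.4% and 31.2% in Ctrl to 39.9%, 39.7% and 41.6% in Nfkbiz KO cells. The 53 TRIM genes outside this list and outside the gene cluster described next summed to 1114 to 1244 TPM across Ctrl samples. Across Nfkbiz KO samples they summed to 1248 to 1307 TPM, a ratio of the means of 1.08. With limma on the TPM scale, the median log2 fold change of all genes was itself 0.06 or 0.08, depending on the pseudocount. By reads, the median of the 33 tested among these 53 genes was -0.04.

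**Figure D3:**
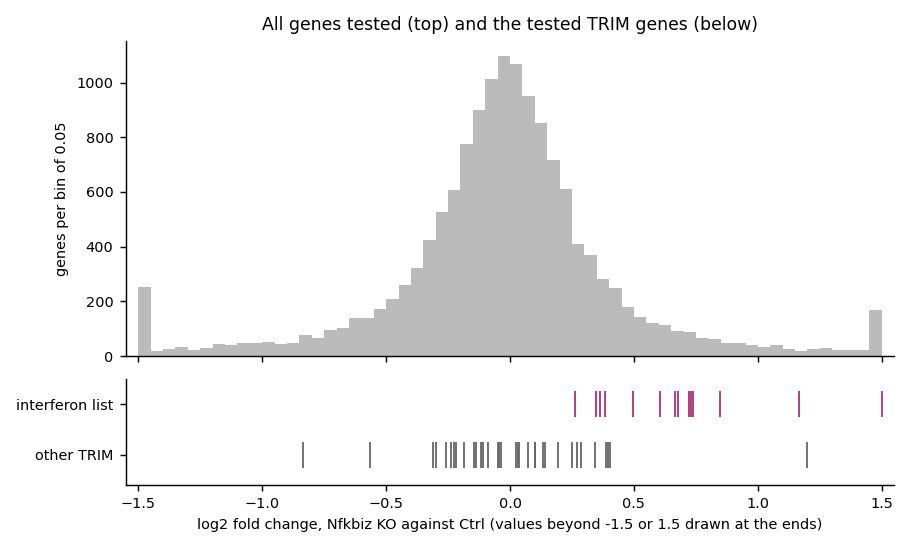
Upper panel: number of genes per bin of log2 fold change (Nfkbiz KO against Ctrl) for all 14533 genes tested; lower panel: each tested TRIM gene as a tick, in 1 row for the 14 interferon-inducible genes and 1 row for the other 34. The interferon-inducible genes lie to the right of the peak of all genes, whose median is -0.02, and the other TRIM genes are spread to both sides of it.

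Most of these genes lie side by side. On mouse chromosome 7 (GRCm39, chr7:103868000-104157107), 10 closely related SPRY-class genes fill 289.1 kb with no other protein-coding gene between them: Trim6, Trim34a, Trim5, Trim12a, Trim34b, Trim12c, Trim30b, Trim30c, Trim30a and Trim30d. Since the interferon-stimulated response element (ISRE), a DNA motif bound by interferon regulatory factors, is the best-known control sequence of interferon-inducible genes, its core GAAANNGAAA was searched on both strands in the RefSeq promoter windows (GRCm38.p6, 250 bases before to 50 after the annotated start). The core was found for 3.99% of 27025 genes and for 9 of the 53 TRIM genes that had a window. These were 8 of the 13 interferon-inducible genes with a window and 1 of the other 40, Trim2. The matches of these 8 genes are shown here to allow the copies to be compared, with 2 for Trim30a, which has 2 annotated starts, 30 bases each on the strand of the gene, with the core in capitals (TTTCNNTTTC is the core on the opposite strand):
Trim5, chr7:104288136-104288165, minus strand: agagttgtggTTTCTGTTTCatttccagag
Trim12a, chr7:104315466-104315495, minus strand: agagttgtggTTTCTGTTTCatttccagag
Trim12c, chr7:104353359-104353388, minus strand: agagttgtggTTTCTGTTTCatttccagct
Trim30a, first start, chr7:104465210-104465239, minus strand: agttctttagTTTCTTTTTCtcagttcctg
Trim30a, second start, chr7:104446104-104446133, minus strand: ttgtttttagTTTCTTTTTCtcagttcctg
Trim30d, chr7:104507871-104507900, minus strand: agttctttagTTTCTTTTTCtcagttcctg
Trim34a, chr7:104244457-104244486, plus strand: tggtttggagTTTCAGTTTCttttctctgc
Trim21, chr7:102565447-102565476, minus strand: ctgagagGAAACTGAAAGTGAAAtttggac
Trim26, chr17:36836979-36837008, plus strand: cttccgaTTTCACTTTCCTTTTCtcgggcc
The windows of Trim5 and Trim12a were identical in 30 of 30 bases, and those of Trim30d and the first Trim30a start likewise, while the window of the second Trim30a start matched the first in 26 of 30 bases, whereas Trim12c matched Trim5 in 28 of 30 bases and the first Trim30a window matched Trim5 in 15. Trim21 and Trim26, which lie outside the cluster, each held 2 overlapping copies of the core. The distance from the annotated start varied even between identical windows, with the core beginning 49 bases before the start of Trim5 and 10 bases after that of Trim12a. A match describes the letters only and does not show that a factor binds there.

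Trim30a, Trim30c and Trim30d are closely related copies, and Trim30a was the member with the highest level in the cluster. It stood at 175, 201 and 162 TPM in Ctrl and at 299, 289 and 310 TPM in Nfkbiz KO samples. The groups were far apart, and the gene rose 1.59-fold (log2 0.67, SE 0.065, adjusted p = 5.99e-06). Trim30d stood at 50.3, 57.0 and 47.4 TPM in Ctrl and at 79.0, 79.5 and 82.4 TPM in Nfkbiz KO samples, again without overlap, and rose 1.52-fold (log2 0.60, SE 0.068, adjusted p = 2.06e-05). Trim30c had a far lower level, 0.793, 0.809 and 0.529 TPM in Ctrl against 2.08, 2.10 and 2.91 TPM in Nfkbiz KO samples. It nonetheless had the highest fold change of all called TRIM genes, 3.05-fold (log2 1.61, SE 0.27, adjusted p = 5.63e-04), on 23, 24 and 17 reads in Ctrl and 58, 58 and 86 reads in Nfkbiz KO samples. Trim30b had 17, 11 and 2 reads in Ctrl and 23, 24 and 23 reads in Nfkbiz KO samples, with a log2 fold change of 1.17 (SE 0.53) that did not pass (adjusted p = 0.106). Its groups did not overlap, but the call turned on the test, the filter and single Ctrl samples, since the gene passed with the edgeR likelihood-ratio test (adjusted p = 0.0463) and without the filter on low counts (adjusted p = 0.0418). Without Ctrl replicate 1, the highest of them, it was called (log2 1.86, adjusted p = 0.0308), and without Ctrl replicate 3, the lowest, the log2 fold change was 0.63 (adjusted p = 0.269). These adjusted p values, 0.0308 and 0.269, were the ends of the range over all alternatives.

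The promoter window of Trim30c held no ISRE core, in contrast to those of Trim30a and Trim30d. Its stretch most like the first Trim30a window had 25 of 30 bases in common, and the core differed there by 1 base, T3C, with positions counted from the first base of the capitals, the base of Trim30a given first and that of Trim30c last. The 250 bases before the annotated start of Trim30c and the first one of Trim30a are given, with the core or its counterpart in capitals, to show the shared sequence around it (GRCm38.p6):
Trim30a, chr7:104465194-104465443, minus strand: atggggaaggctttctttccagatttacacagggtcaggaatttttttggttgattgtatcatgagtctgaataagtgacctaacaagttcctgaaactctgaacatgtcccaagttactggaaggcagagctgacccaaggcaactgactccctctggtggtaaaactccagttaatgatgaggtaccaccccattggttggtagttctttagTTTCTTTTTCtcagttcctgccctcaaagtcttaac
Trim30c, chr7:104400779-104401028, minus strand: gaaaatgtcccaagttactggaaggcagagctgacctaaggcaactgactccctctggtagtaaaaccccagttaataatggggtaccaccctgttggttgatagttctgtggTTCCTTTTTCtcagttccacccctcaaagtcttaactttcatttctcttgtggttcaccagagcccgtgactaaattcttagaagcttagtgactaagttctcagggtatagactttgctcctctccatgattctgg
In the Trim30c sequence the counterpart lay 137 bases before the annotated start, whereas the core of Trim30a began 36 bases before its first annotated start and 2 bases after its second. The gene with the altered core letters thus had the higher fold change and the lower level of the pair. Reads of Trim30a and Trim30c were unique to 99.1% and 100%, so that few of the counted reads had a second place in the genome.

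The copies related to human TRIM5, which recognises incoming retroviral capsids, rose as well. Trim12c stood at 50.9, 60.0 and 55.0 TPM in Ctrl and at 94.8, 100.1 and 97.4 TPM in Nfkbiz KO samples, and rose 1.65-fold (log2 0.72, SE 0.060, adjusted p = 1.33e-06), the lowest adjusted p among the TRIM genes. Trim12a stood at 11.7, 13.9 and 11.7 TPM in Ctrl and at 20.7, 18.1 and 21.2 TPM in Nfkbiz KO samples, and rose 1.41-fold (log2 0.50, SE 0.069, adjusted p = 1.28e-04). For both genes each Nfkbiz KO sample was above each Ctrl sample. Trim5 was lower in level and more variable, with 3.24, 5.14 and 4.35 TPM in Ctrl and 5.34, 6.14 and 5.43 TPM in Nfkbiz KO samples. It was called with a log2 fold change of 0.38 (SE 0.12, adjusted p = 0.0243), but the call was lost when Ctrl replicate 1, Nfkbiz KO replicate 2 or Nfkbiz KO replicate 3 was left out (log2 0.30, 0.29 and 0.41), and on the TPM scale with limma. Trim34a stood at 33.3, 37.2 and 33.1 TPM in Ctrl and at 61.7, 60.7 and 65.3 TPM in Nfkbiz KO samples, and rose 1.66-fold (log2 0.73, SE 0.062, adjusted p = 1.76e-06). Its groups were apart, although 88.7% of its reads were unique and the rest could belong to a copy, as could part of the reads of Trim5 (91.5% unique). With uniquely mapped reads alone, both genes were called, Trim34a at log2 0.74 (adjusted p = 7.07e-07) and Trim5 at log2 0.35 (adjusted p = 0.0357). Trim34b, with 12, 12 and 2 reads in Ctrl and 19, 14 and 15 reads in Nfkbiz KO samples, and Trim6, at 0.397, 0.397 and 0.139 TPM in Ctrl and 0.614, 0.423 and 0.485 TPM in Nfkbiz KO samples, did not pass (adjusted p = 0.26 and 0.361). In all, 7 of the 10 genes of the cluster rose and none fell, against 18% and 18.2% of all genes. The median log2 fold change of the cluster was 0.69.

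**Figure D4:**
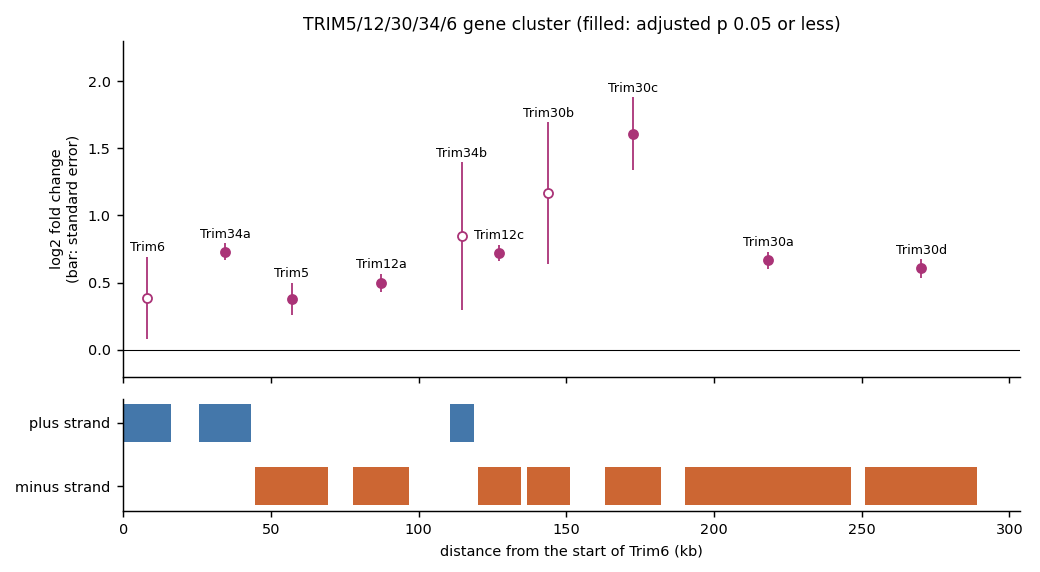
Log2 fold change (Nfkbiz KO against Ctrl, bar: standard error) of the 10 genes of the chromosome 7 cluster against the distance of the middle of the gene from the start of Trim6, with the extent and strand of each gene below. Symbols are filled for an adjusted p of 0.05 or less; all 10 values lie above 0, with the widest bars for Trim30b and Trim34b.

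The 5 interferon-inducible TRIM genes outside the cluster rose without exception, where 18% of all genes rose, with a median log2 fold change of 0.36. Trim21 (chr7:102207128-102214704, GRCm39) encodes the cytosolic antibody receptor that directs antibody-coated viruses to the proteasome. It stood at 30.9, 28.7 and 23.9 TPM in Ctrl and at 45.1, 46.3 and 50.1 TPM in Nfkbiz KO samples, and rose 1.60-fold (log2 0.68, SE 0.080, adjusted p = 3.1e-05). Trim14 (chr4:46493781-46536143), which lacks a RING finger and acts as an adaptor at the mitochondrial protein MAVS, stood at 11.4, 9.58 and 6.52 TPM in Ctrl and at 15.7, 16.5 and 16.3 TPM in Nfkbiz KO samples. The Ctrl samples were spread more widely in TPM than in gene reads, where they had 36.1, 34 and 31.5 CPM against 55.5, 55.9 and 57.9 CPM, and the gene rose 1.67-fold by reads (log2 0.74, SE 0.062, adjusted p = 1.63e-06). Its annotated span overlaps Nans, and the counting did not use strand, so that reads of both genes cannot be told apart there.

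The ligases described next had log2 fold changes of 0.26 to 0.36, at levels that ranged from high for Trim25 to low for Trim65. Trim25, which attaches ubiquitin to the RNA sensor RIG-I (Ddx58), stood at 123, 129.7 and 107 TPM in Ctrl and at 160.3, 166 and 164 TPM in Nfkbiz KO samples. The groups were apart and the gene rose 1.27-fold (log2 0.35, SE 0.056, adjusted p = 4.16e-04). Trim26, at 28.0, 28.4 and 28.9 TPM in Ctrl and 37.0, 39.3 and 40.5 TPM in Nfkbiz KO samples, rose 1.29-fold (log2 0.36, SE 0.060, adjusted p = 5.13e-04) with little spread within either group. Trim56, a ligase linked to cytosolic DNA sensing, stood at 27.3, 32.6 and 24.8 TPM in Ctrl and at 36.2, 36.6 and 35.3 TPM in Nfkbiz KO samples. Ctrl replicate 2 came close to the Nfkbiz KO samples, and the gene rose 1.20-fold (log2 0.26, SE 0.066, adjusted p = 0.00775), a call that limma on log2(TPM + 0.1) did not make. Trim65, which modifies the RNA sensor MDA5 (Ifih1) and was not in the interferon-inducible list, stood at 5.21, 6.45 and 6.15 TPM in Ctrl and at 6.96, 8.47 and 7.96 TPM in Nfkbiz KO samples. It was called at a log2 fold change of 0.28 (SE 0.097, adjusted p = 0.0364), a call that was lost without Ctrl replicate 1, Nfkbiz KO replicate 2 or Nfkbiz KO replicate 3 (log2 0.20, 0.25 and 0.27) and on the TPM scale. Trim65 overlaps Trim47 on the same strand, and Trim47 itself, at 98 to 121 TPM in Ctrl and 112 to 128 TPM in Nfkbiz KO samples, had a log2 fold change of 0.10 (SE 0.085, adjusted p = 0.395).

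The class with a PHD finger and a bromodomain, the nuclear TIF1 proteins, contributed the other called gene with a fold change above 2. Trim66 (chr7:109048210-109107341, GRCm39), a TIF1 protein best known from the testis, had 105, 157 and 167 reads in Ctrl and 270, 322 and 412 reads in Nfkbiz KO samples. That corresponded to 0.912, 1.34 and 1.10 TPM in Ctrl and 2.63, 2.60 and 2.90 TPM in Nfkbiz KO samples, with no overlap. It rose 2.29-fold (log2 1.20, SE 0.13, adjusted p = 1.76e-05), and its log2 fold change stayed between 1.08 and 1.29 with any 1 sample left out. Trim24, a co-regulator of nuclear receptors and a ligase for p53, stood at 13.0, 14.4 and 13.6 TPM in Ctrl and at 18.5, 18.0 and 16.1 TPM in Nfkbiz KO samples, and rose 1.19-fold by reads (log2 0.25, SE 0.062, adjusted p = 0.00717). Trim28 and Trim33, a partner of SMAD4, were not called, with log2 fold changes of -0.12 (SE 0.059, adjusted p = 0.146) and -0.05 (SE 0.060, adjusted p = 0.593). Trim28 had 453, 398 and 426 CPM in Ctrl and 391, 397 and 389 CPM in Nfkbiz KO samples, so that the groups did not overlap but Ctrl replicate 2 lay next to the Nfkbiz KO samples. Without Ctrl replicate 2 its log2 fold change was -0.15, at the lowest adjusted p of its alternatives, 0.0454, while the highest was 0.817.

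Trim44 and Trim35 were further abundant genes that rose. Trim44, which carries a ubiquitin-protease-type zinc finger in place of the RING, stood at 48.0, 55.3 and 44.8 TPM in Ctrl and at 64.5, 67.4 and 69.1 TPM in Nfkbiz KO samples, and rose 1.27-fold (log2 0.34, SE 0.059, adjusted p = 6.43e-04). Trim35, a SPRY-class gene, stood at 143, 145 and 121 TPM in Ctrl and at 172, 165 and 164 TPM in Nfkbiz KO samples. The groups were apart for both genes, but the call of Trim35 (log2 0.19, SE 0.057, adjusted p = 0.0178) was lost whenever 1 Nfkbiz KO sample was left out, with log2 fold changes of 0.18, 0.20 and 0.20. Trim8, at 150.2, 142 and 137 TPM in Ctrl and 172, 179 and 159.7 TPM in Nfkbiz KO samples, did not pass by reads (log2 0.14, SE 0.060, adjusted p = 0.0858). It passed on the TPM scale with limma (adjusted p = 0.0237 at a pseudocount of 1), a scale on which the median of all genes was 0.06, and with scaling by library totals (adjusted p = 0.0474), and its adjusted p over all alternatives ran from 0.0237 to 0.326.

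**Figure D5:**
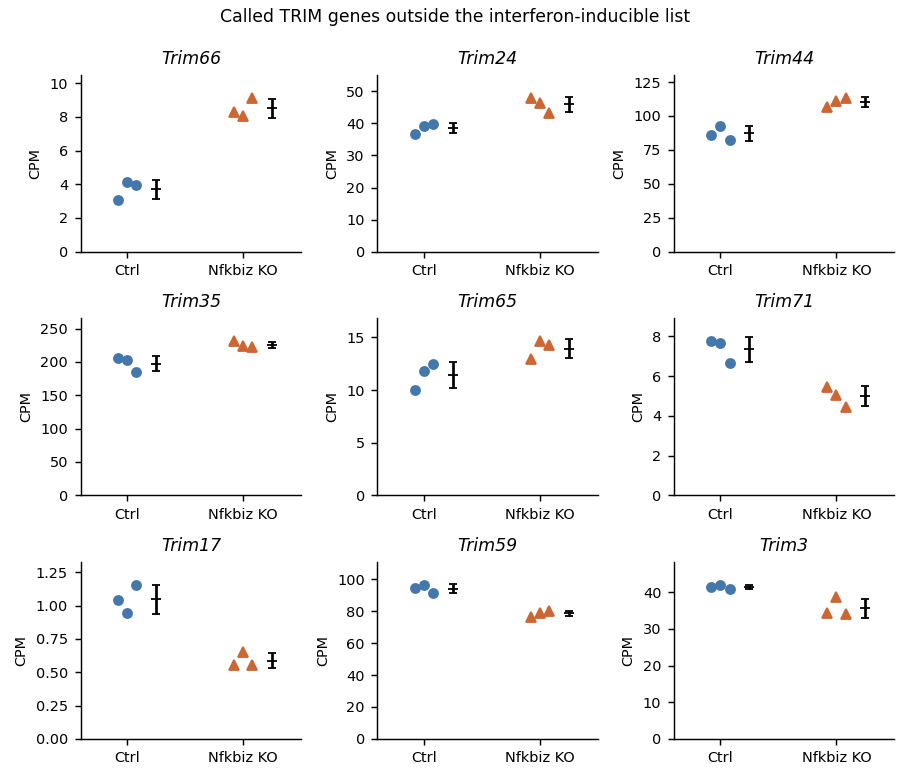
CPM of the 9 called TRIM genes outside the interferon-inducible list in 3 Ctrl samples (circles) and 3 Nfkbiz KO samples (triangles), with mean and SD as bars and each axis starting at 0. Trim66 shows the widest gap, from 3.04 to 4.12 CPM in Ctrl to 8.08 to 9.14 CPM in Nfkbiz KO samples, and Trim71, Trim17, Trim59 and Trim3 lie lower in the Nfkbiz KO samples.

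A total of 4 genes fell, of which Trim71 and Trim3 belong to the class with NHL repeats. Trim71, the vertebrate counterpart of the RNA-binding LIN-41 protein and a target of the let-7 microRNA family, is known from embryonic and progenitor cells. It had 7.76, 7.68 and 6.64 CPM in Ctrl and 5.44, 5.07 and 4.44 CPM in Nfkbiz KO samples, with no overlap, and fell to 0.675 of the Ctrl level (log2 -0.57, SE 0.12, adjusted p = 0.00315). Trim59, which is anchored in membranes, had 94.6, 96.7 and 91.2 CPM in Ctrl and 76.6, 79.2 and 80.1 CPM in Nfkbiz KO samples. It was the lowered gene with the highest level and fell to 0.835 of the Ctrl level (log2 -0.26, SE 0.053, adjusted p = 0.0021). Trim3, like Trim71 a protein with NHL repeats and known from neurons, had 41.6, 42.1 and 41.0 CPM in Ctrl and 34.4, 38.6 and 34 CPM in Nfkbiz KO samples (log2 -0.22, SE 0.063, adjusted p = 0.0167). Trim17, a SPRY-class gene linked to neuronal apoptosis, had 36, 36 and 49 reads in Ctrl and 18, 26 and 25 reads in Nfkbiz KO samples (log2 -0.83, SE 0.27, adjusted p = 0.0313).

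Of the 4 lowered genes, Trim71 and Trim59 kept the call in all 6 fits that left out 1 sample. The call of Trim17 was lost in 5 of the 6 fits that left out 1 sample, in DESeq2 (adjusted p = 0.0592), with uniquely mapped reads (adjusted p = 0.0854) and with the replicate number as a block, within a range over all alternatives of 0.00967 to 0.0936, and 82.1% of its reads were unique. Its span overlaps H3f4 and a further gene, and its level was 0.514 ± 0.0776 TPM in Ctrl cells (SD, n = 3). The call of Trim3 was lost without Nfkbiz KO replicate 1 and without Nfkbiz KO replicate 3 (log2 -0.19 and -0.18), so that without either of these samples the count of lowered TRIM genes was 2, Trim71 and Trim59. On the TPM scale with limma, Trim71, Trim59 and Trim3 kept their direction but were not called (adjusted p = 0.115, 0.0724 and 0.463 at a pseudocount of 1), and the count of lowered genes was 1, Trim17.

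By domain class, most raised genes belonged to the class with a RING finger, B-box and SPRY domain, of which 36 genes were in the tables. Of the 28 tested, 12 rose and 1 fell, against 18% and 18.2% of all genes, with a median log2 fold change of 0.32, and 10 of the 12 raised ones were interferon-inducible genes already described. In the smaller classes the counts are too low to be set apart from the 36.3% of all genes called. The 4 TIF1 genes gave 2 raised and none lowered. The 4 genes with NHL repeats gave none raised and 2 lowered, with a median of -0.13, and the 5 genes with a MATH, ARF, filamin or transmembrane domain gave none raised and 1 lowered, with a median of -0.23. Of the 3 tested genes listed as without a RING finger and outside the classes, Trim14 and Trim44 rose and Trim16 was not called. In the class with a RING finger and B-box alone, Trim56 rose and Trim8 was not called, and 4 genes had too few reads. Among genes named Trim, no member of the classes with a COS box was called, since Trim36 and Trim46 did not pass. The remaining 6 were under the read minimum. Relatives under other names, Mid1 and Mid2 among them, were not placed in these classes and are described below.

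The remaining 27 tested genes were not called, which does not show that they were unaltered. They included the microtubule- and centrosome-associated Trim37 (log2 0.07, SE 0.056) and Trim46 (log2 -0.31, SE 0.12, adjusted p = 0.0529), the ubiquitin ligase of muscle and neuronal proteins Trim32 (log2 -0.04, SE 0.066) and Trim27 (log2 0.03, SE 0.056). Their standard errors of 0.056 to 0.066 for abundant genes contrast with 0.53 for Trim30b and 0.50 for Trim43a, so that for these rare transcripts a change could be measured only coarsely. Trim69 was measured mostly through shared reads, with 32.3% of them unique, and its value (log2 -0.09, SE 0.26) is uncertain for that reason. With uniquely mapped reads alone, its log2 fold change was 0.24 (adjusted p = 0.686).

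Relatives that carry the TRIM architecture under another name changed in both directions. Pml (TRIM19), which builds nuclear bodies and is itself interferon-inducible, stood at 141, 148 and 118 TPM in Ctrl and at 177, 178 and 171 TPM in Nfkbiz KO samples (log2 0.26, SE 0.063, adjusted p = 0.00691). Mid2 stood at 2.25, 2.74 and 2.02 TPM in Ctrl and at 5.77, 4.35 and 4.34 TPM in Nfkbiz KO samples (log2 0.94, SE 0.13, adjusted p = 1.14e-04). Its close relative Mid1, which like Mid2 binds microtubules, went the other way, from 10.8, 11.4 and 9.81 TPM in Ctrl to 9.45, 8.30 and 7.77 TPM in Nfkbiz KO samples (log2 -0.26, SE 0.068, adjusted p = 0.0113), although not past the threshold on the TPM scale or without Nfkbiz KO replicate 3 (log2 -0.24). Mefv, which encodes pyrin, had no read.

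The genes around the family were listed by function. Of 18 genes for nucleic acid sensors and adaptors, the targets of several SPRY-class ligases, 11 rose, 2 fell and 5 were not called, with a median log2 fold change of 0.29, where 18% of all genes were higher and 18.2% lower. Ifih1, the sensor MDA5, rose from 65.9, 71.0 and 56.6 TPM to 121, 116 and 122 TPM (log2 0.80, SE 0.062, adjusted p = 7.23e-07), and Dhx58, the related LGP2, rose by 0.66 (SE 0.057, adjusted p = 1.99e-06). The kinase gene Ikbke was among the 2 that fell, from 9.44, 9.48 and 9.64 TPM to 6.38, 6.07 and 6.08 TPM (log2 -0.77, SE 0.061, adjusted p = 8.82e-07). Of 12 genes of interferon signalling, 6 rose, 1 fell and 5 were not called, with a median of 0.15, beside the same 18% and 18.2% of all genes. Ifnb1, the interferon β gene, was rare at 1.56, 2.35 and 0.908 TPM in Ctrl and 4.90, 3.72 and 5.17 TPM in Nfkbiz KO samples (log2 1.76, SE 0.28, adjusted p = 4.22e-04). Usp18, a target and brake of interferon signalling, rose by 0.59 on the log2 scale (SE 0.052, adjusted p = 2.45e-06). Both lists and the interferon-inducible TRIM genes thus had medians above that of all genes.

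The general ubiquitin machinery and the partners of Trim28 had medians at or below that of all genes. Of 21 genes for ubiquitin, E1 and E2 enzymes, 2 rose, 6 fell and 13 were not called, with a median of -0.09, and the share called was near the 36.3% of all genes. Ube2l6, the interferon-inducible E2 of the ubiquitin-like modifier ISG15, was the one with the highest change, from 210.3, 220.3 and 219 TPM to 383, 374 and 393 TPM (log2 0.73, SE 0.056, adjusted p = 6.56e-07). Ube2d1, an E2 used by many RING ligases, fell from 32.1, 36.8 and 35.5 TPM to 28.6, 28.0 and 27.6 TPM (log2 -0.37, SE 0.063, adjusted p = 5.99e-04). Of 14 co-repressor genes that work with Trim28, 3 rose, 2 fell and 9 were not called, with a median of -0.02, again near the 36.3% of all genes called. Chd3, the nucleosome remodeller of the NuRD complex, fell from 57.6, 58.7 and 50.7 TPM to 33.2, 34.3 and 32.0 TPM (log2 -0.84, SE 0.055, adjusted p = 1.58e-07), while Tasor and Cbx5 rose by 0.29 (SE 0.060, adjusted p = 0.00247) and 0.24 (SE 0.057, adjusted p = 0.00533).

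In the promoter windows, 2 further motifs were searched on both strands. The STAT dimer motif GAS (TTCNNNGAA) was present for 9.55% of all genes and for 6 of 53 TRIM genes (Trim15, Trim30c, Trim31, Trim38, Trim45 and Trim46), of which Trim30c alone was called. The NF-κB consensus was present for 5.14% of all genes and for 1 TRIM gene, Trim43a, which was not called. The ISRE core was present for 8 of the 14 raised TRIM genes with a window and for 1 of 23 other tested ones. Among the raised genes with a window and without the core were Trim25, Trim56 and Trim30c. Trim14, Trim35 and Trim65 had no window.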

How the data were processed

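RNA of 3 Ctrl and 3 Nfkbiz KO samples was sequenced as paired reads by the authors. They mapped the reads with CLC Genomics Workbench (GRCm39 in the methods, GRCm38 in the submitters' processing notes) and counted pairs once, without regard to strand, with up to 10 hits per read. The deposited tables give 1 row per gene with the count of total and of unique gene reads (counts, not normalised) and TPM and RPKM values scaled by the authors. Between 2105 and 2271 genes per sample had gene reads but an RPKM of 0, so that TPM and gene reads are not the same reads rescaled. Depth was 32219900 to 44927203 gene reads.

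Total gene reads of the genes with at least 10 reads in 3 samples were tested with edgeR 4.0.16 (TMM, quasi-likelihood F-test, R 4.3.3), with Benjamini-Hochberg adjustment over 14533 genes and a threshold of 0.05. Standard errors are the absolute log2 fold change divided by the root of F. Alternatives were the edgeR likelihood-ratio test, DESeq2 1.42.0, other scalings and filters, unique reads, limma 3.58.1 on log2(TPM + 1) and log2(TPM + 0.1), the replicate number as a block, and each sample left out. The test was checked on counts simulated with the same dispersion in both groups. It recovered 76 of 99 genes changed 2-fold and 77 of 100 changed 1.5-fold. This check did not cover a wider spread between Ctrl than between Nfkbiz KO samples. Apart from the limit given for genes without reads, CPM values are relative to the summed reads of the 14533 genes tested, after TMM.

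The members and lists were chosen with earlier results of these data known. Named were up to 20 TRIM genes with the largest change among those called, the 10 with the highest mean TPM, all tested interferon-inducible and cluster genes, Nfkbiz and TRIM relatives, and up to 3 called genes of each other list, of which 2 are not reported here. Trim27, Trim32, Trim33, Trim37, Trim43a, Trim46 and Trim69 were named after their values were seen. Genes were placed with GENCODE M39 (GRCm39). Promoter windows came from RefSeq (GRCm38.p6), in which 53 of 68 TRIM genes matched by symbol, and no coordinates were converted. No pair of samples of a group agreed within sampling noise. The chi-square per degree of freedom was 27.8 to 70.9 between Ctrl samples and 3.49 to 6.20 between Nfkbiz KO samples. The Nfkbiz KO samples were thus closer to each other, while the test used the same dispersion for both groups. Same-numbered samples did not deviate together (correlations 0.051, -0.02 and 0.028), so the numbers were not taken as pairs.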

Additional observations from a re-analysis of the deposited data

How the results depend on the processing

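The count of raised TRIM genes stayed between 16 and 18 under the alternative tests, scalings and filters and between 14 and 18 with 1 sample left out, and that of raised interferon-inducible TRIM genes between 10 and 13 and between 11 and 12. The count of lowered TRIM genes was 4, but 1 with limma on either TPM scale and 2 to 6 with 1 sample left out, the 2 without Nfkbiz KO replicate 1 or replicate 3. TRIM genes past the threshold of the study numbered 0, 1 with a difference above 4 CPM, 2 without a cut-off on the difference and 9 when 1.5-fold and an adjusted p up to 0.1 sufficed. Of 432 values of single TRIM genes under the alternatives, 395 kept direction and side of the threshold, 30 lost the call, 7 gained it and 0 reversed. The log2 fold change of Nfkbiz was -1.01 to -0.94 with 1 sample left out. The cause was not tested in any of these.

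With the replicate number as a block, 17 TRIM genes were higher and 3 lower, and the log2 fold change of Nfkbiz was -0.98. Of 27 named TRIM genes the block changed 1 call, that of Trim17 (log2 -0.83). In the co-repressor list the count of lowered genes was 1 with the block, with library totals, without a filter and with limma, and in the ubiquitin, E1 and E2 list it was 2 with limma and 3 without Nfkbiz KO replicate 1 or replicate 3. Depth limits the genes with no more than 100 reads over all samples, such as Trim30b and Trim34b.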
